A study of Homo sapiens with 8 samples.

Results

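The strands of the miR-490 duplex were compared directly in HCT116, a colorectal cancer cell line, by taking the log2 ratio of the miR-490-3p array minus that of the miR-490-5p array for each gene. A probe entered when it was no control spot and was well above background, by the flag of the scanner software, in at least 1 channel on both arrays. This left 26885 of 58201 probes, which belonged to 20388 named genes. Where a gene had several probes, the brightest over the 8 arrays of the series stood for it, chosen before the filter. That probe passed for 20326 of 42072 named genes, which are the genes measured below.

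Each of the 2 samples was a 2-colour array. The Cy5 channel held RNA of HCT116 cells transfected with mature miR-490-3p or mature miR-490-5p with Lipofectamine RNAiMAX, a lipid reagent, and the Cy3 channel held RNA of mock HCT116 cells labelled as without transfection. No array held a control miRNA, no dyes were swapped, and the labels do not say whether the arrays shared a mock extract. The other 6 arrays of the series were of renal and breast cancer lines. A ratio below is log2 of transfected over mock, and a difference is the ratio with miR-490-3p minus the ratio with miR-490-5p, so that a value above 0 means more of the transcript with miR-490-3p, or less with miR-490-5p. Where a pair of values is given for a gene or list, they are its ratios on the 3p and the 5p array, in that order, and a single value is the difference. A bias of a probe toward a dye, and any effect that both transfections had to the same size, leave this difference. Each strand was measured on 1 array, so no test was run and no p-value is given. Genes are described by a rule of size, a difference of 1 or more either way. A lower share of cells with a transcript and a lower level per cell cannot be told apart in bulk RNA.

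A miRNA gene gives a hairpin that is cut to a duplex of a 5p and a 3p strand. A strand loaded into an Argonaute protein pairs, chiefly through the seed at its 5′ end, with sites in the 3′ untranslated regions of messenger RNAs, and lowers their level or translation. The strands of a duplex have different seeds and so different sets of sites, and in many duplexes one strand is degraded as the passenger. The mature sequences, from RefSeq on GRCh38.p14, are shown because every later statement on seed matches rests on them. The seed, bases 2 to 8, is in capitals. The 5p strand lies at chr7:136903205-136903224 and the 3p strand at chr7:136903242-136903263, both on the plus strand.
miR-490-5p: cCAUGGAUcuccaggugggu
miR-490-3p: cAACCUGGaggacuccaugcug
The match of the 5p seed in a transcript reads ATCCATG, and that of the 3p seed reads CCAGGTT.

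The profiles of the strands differed by more than the mock channels did. The difference was at or above 1 for 174 genes (0.856% of those measured) and at or below -1 for 90 genes (0.443%). This split depended on the scaling, at 348 and 72 genes with median centring, 174 and 149 from the Cy5 channels alone and 940 and 1026 by the scanner's own log ratio. The SD of the difference over all genes was 0.328. The mock channels of both arrays were compared alone, after background correction and quantile normalization in place of loess. They differed with an SD of 0.0789 and by 1 or more in 1 gene (0.00492%). The Cy5 channels compared in that way differed with an SD of 0.338. Repeated spots of the same probe had a pooled SD of the difference of 0.0696 over 279 probes. The spread of repeated spots is technical and holds no variation between cultures. Whether the mock spread holds any is not known, since the labels do not say whether the mock extract was shared. Of 13 colorectal markers, 8 passed the filter. Among them were the epithelial markers EPCAM, CDH1, KRT8, KRT18 and KRT19 and the intestinal factors CDX1 and CDX2. VIL1, CDH17, HNF4A, LGR5 and ASCL2 did not pass. Of 13 markers of other lineages, 5 passed (COL1A1, PAX2, PAX8, PTPRC and VWF). Of all 42072 named genes 20326 passed, so passing the filter is by itself no evidence of lineage.

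Most genes that were higher with miR-490-3p owed the difference to a low ratio with miR-490-5p. Of the 174 genes, 101 lay at or below -0.5 with miR-490-5p and within 0.5 of mock with miR-490-3p. Another 36 were away from mock with miR-490-3p alone, 29 lay past 0.5 in opposite ways and 8 the same way on both arrays. On the other side the pattern was turned around. Of the 90 genes lower with miR-490-3p, 47 were away from mock with miR-490-3p alone, 28 with miR-490-5p alone, 10 in opposite ways and 5 the same way. The genes nearest the limit were MICALL2 at 1.001 inside and TLCD3A at 0.999 outside, and BTG2 at -1.004 inside and SCARNA8 at -0.995 outside. A further measured probe existed for 52 of the 174 genes, and the median of such probes had the same sign in 50 but reached 0.5 in 26. For the 90 genes these numbers were 33, 29 and 14. The brightest probe of a gene therefore often gave a wider difference than its other probes.

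**Figure D1:**
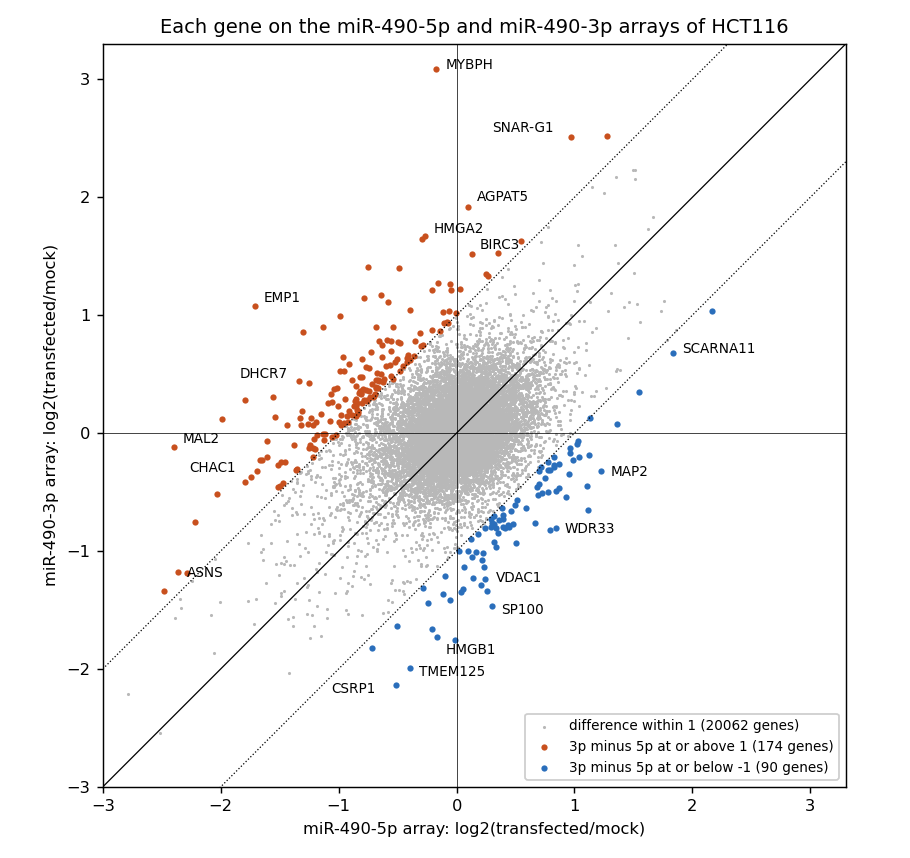
Each point is a gene, with its log2(transfected/mock) on the miR-490-5p array on the x axis and on the miR-490-3p array on the y axis; the solid line marks equal ratios and the dotted lines a difference of 1 either way. The 174 genes above the upper dotted line lie mostly left of 0, and the 90 genes below the lower one lie mostly below 0.

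The highest differences belonged to genes of varied roles, several of them membrane proteins, and are given here for 14 genes. MYBPH, myosin-binding protein H of the muscle thick filament, lay at 3.09 with miR-490-3p against -0.17 with miR-490-5p, a difference of 3.26 (hg19 chr1:203136960-203137019, minus strand). The scanner's own log ratio put it at 5.32, so its size depends on the background correction. EMP1, a tetraspan membrane protein of epithelia, lay at 1.08 and -1.71, a difference of 2.79 or 6.92 times (hg19 chr12:13369562-13369621, plus strand). MAL2, needed for transport of proteins to the apical membrane, was at -0.11 and -2.40. Its difference was 2.29, but a second probe gave 0.36. AP1S2, a subunit of the clathrin adaptor AP-1, lay at 1.41 and -0.75, a difference of 2.16, with a second probe at 0.64.

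MYEOV, a gene amplified along with cyclin D1 in tumors, lay at 0.85 with miR-490-3p against -1.30 with miR-490-5p, a difference of 2.16. ADA, adenosine deaminase of purine salvage, lay at 0.12 and -1.99, a difference of 2.11 (hg19 chr20:43248191-43248250, minus strand). For ADA the ratio with miR-490-3p was close to mock, and the miR-490-5p array carried nearly all of the difference. CYB5B, the cytochrome b5 of the outer mitochondrial membrane, was at 0.90 and -1.13, a difference of 2.03. The transcript annotated as lnc-EGLN1-1 lay at 0.99 and -0.99, a difference of 1.98, and its second probe gave 1.93. DCBLD2, a transmembrane receptor, lay at 0.31 and -1.56, a difference of 1.87, with further probes at 1.04 and 0.60.

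In the remaining genes of the 15 highest, as in MYBPH and AP1S2, the miR-490-3p array carried most of the difference. HMGA2, an architectural chromatin protein of embryonic and tumor cells, lay at 1.67 and -0.27, a difference of 1.94, but further probes lay at 0.07 and -0.04. The high value was thus seen by 1 of 3 HMGA2 probes. JCAD, a protein of cell junctions, was at 1.65 and -0.29 and the metalloprotease ADAM19 at 1.15 and -0.78. Their second probes gave smaller differences of 0.67 for JCAD (against 1.94) and 0.44 for ADAM19 (against 1.93). The ubiquitin ligase RNF182 lay at 1.40 and -0.49, a difference of 1.89. AGPAT5, an acyltransferase of phospholipid synthesis, lay at 1.92 and 0.09, a difference of 1.82.

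The lowest differences also belonged to genes of varied roles. SP100, a component of nuclear bodies, lay at -1.47 with miR-490-3p against 0.30 with miR-490-5p, a difference of -1.77. Further SP100 probes lay at 0.31 and -0.01, so the low value was not shared between probes. The noncoding UNC5B-AS1 was at -0.65 and 1.11, a difference of -1.76. WDR33, which recognizes the polyadenylation signal of pre-mRNA, lay at -0.80 and 0.84, a difference of -1.64, with further probes at -0.13 and 0.13. CSRP1, a LIM-domain protein of the actin cytoskeleton, lay at -2.14 and -0.51, a difference of -1.63 (hg19 chr1:201453051-201453110, minus strand). EPPK1, the intermediate filament linker epiplakin, lay at -0.82 and 0.79, a difference of -1.61. TMEM125, a membrane protein, lay at -2.00 and -0.39, a difference of -1.60 (hg19 chr1:43739605-43739664, plus strand). CSRP1 and TMEM125 had the lowest ratios with miR-490-3p of these genes.

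VDAC1, the voltage-dependent anion channel of the outer mitochondrial membrane, lay at -1.34 with miR-490-3p against 0.26 with miR-490-5p, a difference of -1.60 or 3.03 times (hg19 chr5:133307902-133307961, minus strand). Its second probe gave -0.63, the same way but smaller. HMGB1, a chromatin protein, was at -1.73 and -0.17, a difference of -1.56, and HNRNPA1, an RNA-binding protein of splicing, at -1.66 and -0.21, a difference of -1.46. Both have many processed copies in the genome, so the transcript read by their probes is uncertain. Further HNRNPA1 probes gave -0.75 and -0.21. MT1F, a zinc-binding metallothionein, lay at -1.24 and 0.24, a difference of -1.48, and is uncertain for the same reason, since the metallothionein genes are near-identical.

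The last genes of the 15 lowest were mostly high with miR-490-5p. RASGRP2, an exchange factor of Rap1, lay at -0.45 with miR-490-3p against 1.11 with miR-490-5p, a difference of -1.56. Its further probes lay between -0.85 and -0.03. The microtubule-associated protein MAP2 was at -0.32 and 1.23, a difference of -1.55. ARID5B, a DNA-binding protein, was at -0.54 and 0.93, a difference of -1.47. In these 3 genes the miR-490-5p array lay farther from mock. TNFSF12, the cytokine TWEAK, lay at -1.29 and 0.21, a difference of -1.50, with a second probe at 0.00, and SGCE, epsilon-sarcoglycan, lay at -0.93 and 0.50, a difference of -1.44. LOC102723366, at -1.75, stood among the lowest but was left out by the rule for named genes, since its mock channels differed by 1.76 and its Cy5 channels by 0.11.

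**Figure D2:**
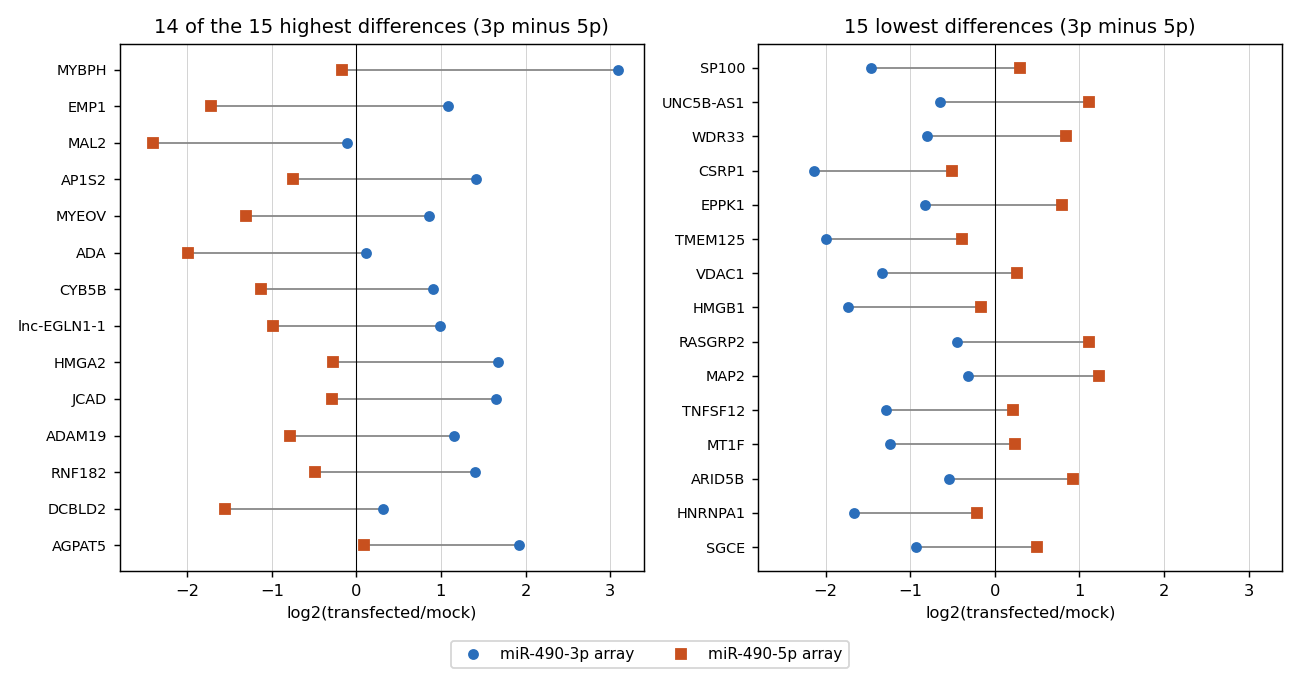
For 14 of the 15 genes with the highest difference (left) and the 15 with the lowest (right), the x axis gives log2(transfected/mock) on the miR-490-3p array (circles) and on the miR-490-5p array (squares), 1 array each. On the left the squares lie at or below 0.09 and on the right the circles lie at or below -0.32.

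Among the gene lists, the ATF4 programme had the highest median difference and the SNAR RNAs the next (0.77 and 0.73), although by the scanner log ratio the SNAR RNAs lay higher (0.92 against 0.78). ATF4 is the transcription factor of the integrated stress response, and it switches on genes for amino acid synthesis and uptake when amino acids or the folding capacity of the endoplasmic reticulum (ER) run short. Of 25 genes listed, 24 were measured and 23 of these were above 0, against 49.7% of all genes. The median ratio was -0.45 with miR-490-3p against -1.30 with miR-490-5p, and the median difference was 0.77, against -0.0015 for all genes. The list was thus below mock with both strands and lower with miR-490-5p. There 15 of 24 genes lay at or below -1 (1.13% of all genes), compared with 5 of 24 with miR-490-3p (0.689% of all genes). The difference was at or above 0.5 in 15 genes (6.88% of all genes) and at or above 1 in 5 (0.856%). CTH, cystathionine gamma-lyase, was the gene below 0.

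ATF4 itself lay at -0.59 with miR-490-3p against -1.45 with miR-490-5p, a difference of 0.86. ASNS, asparagine synthetase, lay at -1.18 and -2.37, a difference of 1.19 (hg19 chr7:97481461-97481520, minus strand). PSAT1, of serine synthesis, lay at -0.24 and -1.49, a difference of 1.25. PHGDH, which starts that pathway, was lower on both arrays, at -1.05 and -1.47, and SHMT2 and MTHFD2 of mitochondrial one-carbon metabolism had differences of 0.76 and 0.86. The enzymes of serine and asparagine synthesis were all lower with miR-490-5p. CHAC1, which breaks down glutathione, lay at -0.37 and -1.74, a difference of 1.37, with a second probe at 0.25.

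The amino acid transporters followed the same order. SLC7A5, the large neutral amino acid transporter, lay at -0.24 with miR-490-3p against -1.46 with miR-490-5p, a difference of 1.21. SLC7A11, the cystine importer, lay at -0.45 and -1.50, a difference of 1.05. SLC3A2, the heavy chain both depend on, had a difference of 0.61, and the glutamine transporter SLC1A5 one of 0.94. Several stress regulators of the list were low on both arrays. DDIT3 (CHOP) lay at -1.44 and -1.54, DDIT4, an inhibitor of mTOR signalling, at -1.23 and -1.29, and the pseudokinase TRIB3 at -1.54 and -2.08. DDIT3 and DDIT4 were therefore about equally low with both strands, at differences of 0.10 and 0.07.

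The cytosolic aminoacyl-tRNA synthetases, which charge tRNAs with amino acids and many of which ATF4 switches on, were close to mock with miR-490-3p and below it with miR-490-5p. All 20 were measured, with median ratios of -0.02 and -0.64 and a median difference of 0.59. The difference was above 0 in 17 (49.7% of all genes) and at or above 0.5 in 13 (6.88%). MARS1, for methionine, lay at 0.28 and -0.85, a difference of 1.14, though its second probe gave 0.33. SARS1, for serine, lay at -0.34 and -1.33, IARS1, for isoleucine, at -0.05 and -1.02, and AARS1, for alanine, at -0.31 and -1.24. RARS1, for arginine, and LARS1, for leucine, were among those that went the other way, with differences of -0.43 and -0.15.

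Promoter sequence was read for the ATF4 list because the element that ATF4 binds with C/EBP proteins is known. RefSeq windows of 250 bases before to 50 after the gene start on GRCh38.p14 were found for 20 of the 24 genes. The C/EBP-ATF response element was searched as TGATGNAAN on both strands. It was present in 4 of the 20 windows, those of ASNS, ATF3, CHAC1 and SLC3A2, and in 1002 of all 27305 windows (3.67%). The stretches of the genes past 1 are printed along the gene's strand, with the element in capitals, at chr7:97872458-97872486 (minus strand) for ASNS and chr15:40953251-40953279 (plus strand) for CHAC1, where it reads in reverse.
ASNS: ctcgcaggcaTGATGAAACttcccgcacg
CHAC1: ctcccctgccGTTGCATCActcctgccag
Relative to the gene start the element lies at position -68 in ASNS and -210 in CHAC1. A match describes the letters of the window and is no measure of binding.

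The sterol synthesis genes were near or above mock with miR-490-3p and below it with miR-490-5p. These genes make cholesterol from acetyl-CoA or take it up, under control of SREBF2. All 22 were measured, with median ratios of 0.15 and -0.36 and a median difference of 0.51. The difference was above 0 in 20 of them (49.7% of all genes), and 21 of 22 lay below 0 with miR-490-5p. DHCR7, the last enzyme of the pathway, lay at 0.42 with miR-490-3p against -1.25 with miR-490-5p, a difference of 1.68 or 3.20 times (hg19 chr11:71145514-71145573, minus strand). INSIG1, which holds SREBF2 in the ER, lay at 0.28 and -0.76, a difference of 1.03. HMGCS1, which makes the precursor HMG-CoA, lay at 0.20 and -0.54, a difference of 0.74, and SREBF2 had a difference of 0.47. PMVK and TM7SF2 were the genes below 0, with differences of -0.72 and -0.27. The sterol regulatory element, searched on both strands as TCACNCCAC, was present in 1 of 16 promoter windows found, that of SREBF2, and in 1.15% of all windows. Of 13 fatty acid synthesis genes 10 were above 0, with a median of 0.18, from ACSL1 at -0.21 to ACSS2 at 0.99.

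**Figure D3:**
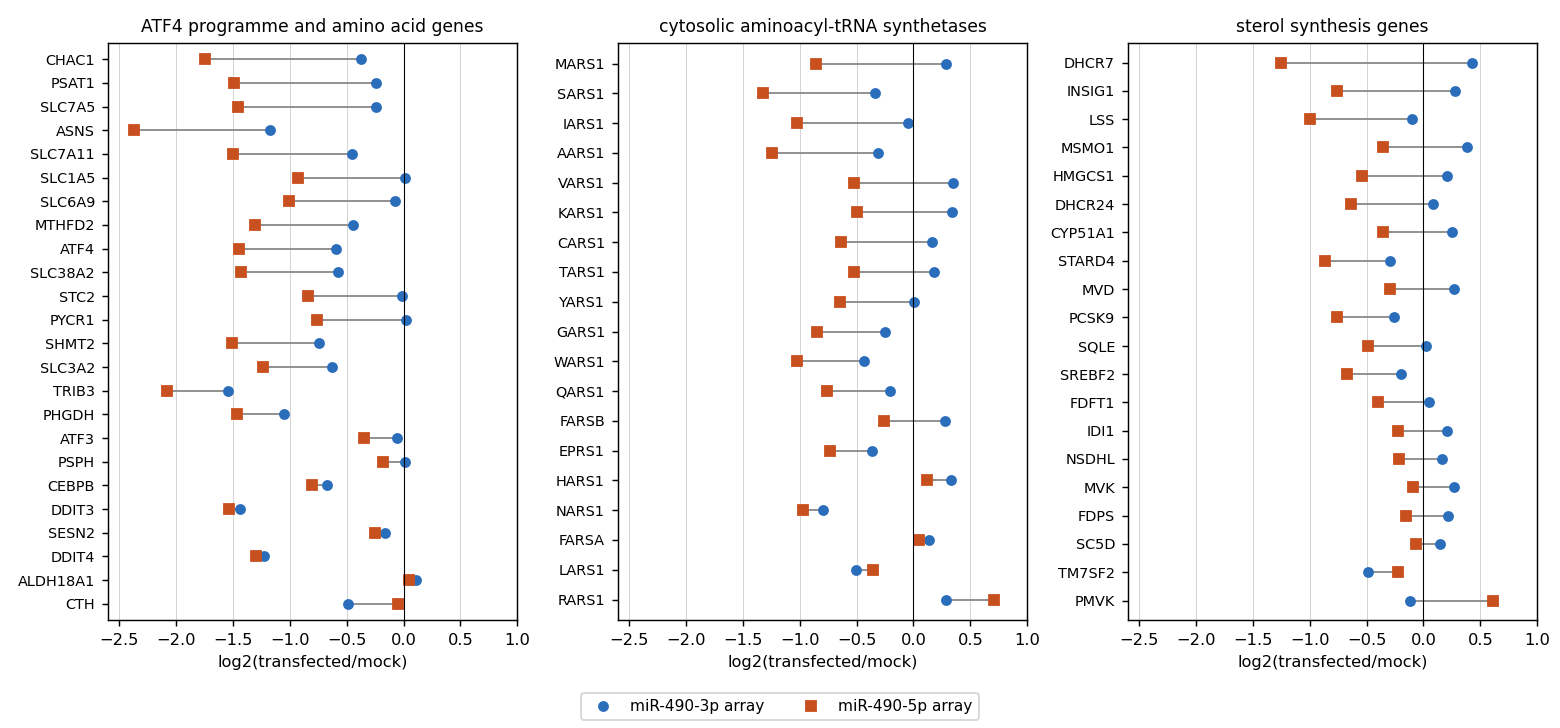
For genes of the ATF4 programme (24 shown), the cytosolic aminoacyl-tRNA synthetases (19 of 20 shown) and the sterol synthesis genes (20 of 22 shown), the x axis gives log2(transfected/mock) on the miR-490-3p array (circles) and the miR-490-5p array (squares), ordered by the difference. The squares lie left of the circles in 23, 17 and 18 of those shown, and the ATF4 genes are low on both arrays while most circles of the other lists lie near 0.

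The chaperones and folding enzymes of the ER were below mock with both strands, so the direct difference between strands was small. These proteins fold secreted and membrane proteins and are made in larger amounts in the unfolded protein response. All 21 measured genes lay below 0 on both arrays, with a median ratio of -0.92 with miR-490-3p against -1.11 with miR-490-5p. The ratio was at or below -1 in 9 genes with miR-490-3p (0.689% of all genes) and in 12 with miR-490-5p (1.13%). The median difference was 0.13, with 19 of 21 above 0 and none past 1. HSPA5, the ER chaperone BiP, lay at -1.41 and -2.35, a difference of 0.94. PDIA4 was at -1.57 and -2.39, and P4HB at -0.39 and -1.23, both enzymes that form disulfide bonds, with differences of 0.82 and 0.84. MANF, a secreted factor of stressed ER, went the other way, at -1.47 and -1.18. HYOU1, a chaperone that exchanges the nucleotide of HSPA5, lay at -0.91 and -0.99 and DNAJB11 at -1.20 and -1.51.

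Other ER machinery showed single genes that favoured either strand. HERPUD1, of ER-associated degradation, lay at -1.08 with miR-490-3p against -1.64 with miR-490-5p, a difference of 0.56. SEL1L, the adaptor of the degradation ligase, lay at -1.50 and -0.94, a difference of -0.56. STT3B, a catalytic subunit of the oligosaccharyltransferase that adds sugar chains in the ER, was at -1.26 and -0.45, a difference of -0.81. STT3A, the other catalytic subunit, was low with both strands, at -1.42 and -1.25. Over the lists, the median difference was 0.06 for 18 sensors and degradation genes, -0.07 for 11 oligosaccharyltransferase genes, 0.24 for 15 translocon and signal peptidase genes and 0.12 for 24 genes of ER-to-Golgi traffic, with none past 1. Cytosolic heat shock proteins, which answer a separate stress, were above mock with both strands, at median ratios of 0.39 and 0.30 over 13 genes.

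Interferon-stimulated genes were above mock with miR-490-3p, and as a list near mock with miR-490-5p. These genes encode antiviral proteins that cells make after sensing foreign RNA or receiving interferon. Of 39 genes listed 29 were measured, with median ratios of 0.24 and 0.01 and a median difference of 0.34. The difference was above 0 in 25 of 29 (49.7% of all genes) and at or above 1 in 3 (0.856%). OASL, a relative of the RNA-activated oligoadenylate synthetases, lay at 1.03 with miR-490-3p against -0.11 with miR-490-5p, a difference of 1.14. ISG15, a ubiquitin-like modifier, lay at 1.03 and -0.06, a difference of 1.09 (hg19 chr1:949567-949626, plus strand). IFIT2, which binds viral RNA, lay at 1.63 and 0.54, a difference of 1.08, with a second probe at 0.42. IFIT1, a relative that binds RNA ends, was above mock with both strands, at 1.30 and 0.70, as was IFI6 at 0.80 and 0.25. MX1 lay at 0.01 and -0.06 and IFITM1 at -0.16 and -0.14, both near mock throughout. The sensor RIGI lay at 0.46 and 0.12, and the adaptor MAVS at -0.59 and -0.07.

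The promoters of the interferon list were read in the same windows for the interferon-stimulated response element, searched on both strands as TTTC, any 2 bases and TTTC again. It was present in 18 of 23 windows found, and in 996 of all 27305 (3.65%). The windows that hold it span the list, from PARP12 at 0.67 and ISG15 at 1.09 to SAMD9 at -0.17 and DDX60 at 0.02. The element is shown in capitals along the gene's strand for ISG15 (chr1:1013380-1013408, plus strand), where it reads in reverse, for IFIT1 (chr10:89392497-89392525, plus strand) and for SAMD9 (chr7:93118097-93118125, minus strand), as a gene with the element and no difference past 0.5.
ISG15: tcgggaaaggGAAACCGAAActgaagcca
IFIT1: ctagctttagTTTCACTTTCccctttcgg
SAMD9: tctgagaaatGAAACTGAAAccaaaccta
Genes with a high and genes with a low difference both held the element.

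Antigen presentation and the SNAR RNAs lay on the same side as the interferon list. Of 13 genes of HLA class I presentation 10 were above 0, with a median difference of 0.52 that was 0.32 with the median over probes, 0.35 without the filter on dim probes and 0.36 from the Cy5 channels alone. The peptide transporter subunit TAP2 and the loading factor TAPBP lay highest, with differences of 0.96 and 0.91. HLA-B and HLA-C had differences of 0.67 and 0.75, but their probes can read alleles and related genes, so the gene is uncertain. TAP1 lay at -0.32 and HLA-E at -0.38. The SNAR genes, small noncoding RNAs transcribed by RNA polymerase III, were above mock with both strands, at median ratios of 2.12 with miR-490-3p against 1.20 with miR-490-5p over 10 of 12 genes. The median difference was 0.73, but 0.34 from the Cy5 channels alone. SNAR-G1 lay at 2.51 and 0.97, a difference of 1.53. As near-identical copies the SNAR genes count as 1 signal, and which copy was read is uncertain.

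Among immediate early and inflammatory genes, a few stood apart from lists that otherwise centred near 0. MYC, the growth-promoting transcription factor, lay at 0.56 with miR-490-3p against -0.77 with miR-490-5p, a difference of 1.33. JUN, a subunit of the transcription factor AP-1, lay at 1.09 and 0.10, a difference of 0.98. The median of 25 such genes was 0.07, and EGR1 went the other way at -0.39. BIRC3, an NF-kB target that inhibits apoptosis, lay at 1.52 and 0.14, a difference of 1.38, and the NF-kB subunit RELB lay at 0.91 and 0.01. The median of 19 chemokine and NF-kB genes was 0.21, with TNFAIP2 lowest at -0.67.

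Glycolysis genes were mostly higher with miR-490-3p, and oxidative phosphorylation genes lay on both sides of 0. Over 24 glycolysis and hypoxia genes the median difference was 0.39, with 20 above 0 (49.7% of all genes). PGK1, a glycolytic kinase, lay at -0.13 and -1.26, a difference of 1.13, and GAPDH, often used as a reference gene, at -0.31 and -1.36, a difference of 1.05. HK2, a hexokinase, lay at -0.17 and -0.99, a difference of 0.82, whereas HK1 had a difference of -0.21. Over 28 oxidative phosphorylation genes the median was 0.13, with 16 above 0 and 12 below, and 0.04 from the Cy5 channels alone. At or above 1 were 2 of the 28 (0.856% of all genes). SDHB, of complex II, lay at 0.07 and -1.22, a difference of 1.29, and UQCRC2, of complex III, at 0.39 and -0.67, a difference of 1.05. Ribosomal proteins, which are among the brightest probes, had a median of -0.12 over 37 genes, from -0.56 to 0.15. That median was 0.03 by the scanner log ratio, 0.05 with median centring and 0.03 from the Cy5 channels alone, so differences of this size in bright genes depend on the normalization.

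The proliferation lists differed little between strands. Over 31 genes of G1/S and replication the median difference was 0.19, with 23 above 0, none past 1 and CDC45, a part of the replicative helicase, highest at 0.90. Over 26 mitotic genes it was 0.05. The targets of p53, the tumor suppressor that halts division after damage, had a median of -0.27 over 17 genes, with 13 below 0. TP53I3, a quinone oxidoreductase, lay at -0.80 with miR-490-3p against 0.41 with miR-490-5p, a difference of -1.21, and its second probe gave -1.37. BTG2, which slows proliferation, lay at 0.13 and 1.13, a difference of -1.004. The proapoptotic BBC3 and BAX had differences of -0.86 and -0.70. TNFRSF10B, a death receptor, was the exception past 1, at 0.23 and -0.87, a difference of 1.10. CDKN1A, the p53 target that inhibits cyclin-dependent kinases, differed by 0.17.

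Epithelial genes spread to both sides. Their median was -0.06 over 27 genes, but CLDN7, a tight junction claudin, lay at -0.01 with miR-490-3p against -1.19 with miR-490-5p, a difference of 1.17, on the side where MAL2 also lay. The keratins KRT18 and KRT8 had differences of 0.79 and 0.64. GRHL2, a transcription factor of epithelia, had a difference of -0.81, and CDH1, E-cadherin, of -0.41. ESRP1, an epithelial splicing factor, was low with both strands, at -2.04 and -1.42. Of 11 mesenchymal genes measured ZEB1, a repressor of CDH1, lay at 0.99 and 0.08, a difference of 0.91, and VIM, vimentin, at 0.20 and 0.49. The high-mobility-group genes also split, with HMGN2 at -0.52 and -2.03, a difference of 1.51, HMGA2 at 1.94 and HMGB1 at -1.56. Further HMGN2 probes had a median of 1.29, and its processed copies leave the transcript uncertain.

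The study selected 38 candidate targets of miR-490-3p partly by their low level on the miR-490-3p array, so their low ratio there is no independent evidence of a direction. Of the 38, 34 were measured. The median ratio was -0.80 with miR-490-3p against -0.13 with miR-490-5p, and the median difference was -0.36. The difference was below 0 in 29 and at or below -1 in 5 (0.443% of all genes), which were VDAC1, HMGB1, MT1F, HNRNPA1 and SORL1. SORL1, a sorting receptor of endosomes, lay at -0.97 and 0.34, a difference of -1.31. RAB11FIP1, an effector of the recycling GTPase RAB11, and NCOA7 followed with differences of -0.98 and -0.90. Other candidates were as low with miR-490-5p. HKDC1, a hexokinase, lay at -1.43 and -2.01, a difference of 0.58, and UGGT1, the glycoprotein folding sensor, at -0.85 and -0.86. For 9 of the 34 the ratio with miR-490-3p was at or below -1 (0.689% of all genes). With miR-490-5p this held for 2 of the 34 (1.13% of all genes). The study lists all 38 below -1 with miR-490-3p by its own processing. The background correction used here draws dim probes toward 0, so these counts are not on the scale of the study.

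A list of 6 genes named as targets of miR-490-3p by the study or by other work does not hold every such gene. All 6 were below 0 in the difference, over a wide range, while 49.7% of all genes were above 0. IRAK1, FUT1, GPRIN2 and VDAC1 are also among the candidates above, so their low level on the miR-490-3p array entered their choice. IRAK1, a kinase of interleukin-1 and Toll-like receptor signalling, lay at -0.63 with miR-490-3p against -0.34 with miR-490-5p, a difference of -0.29, and its second probe gave -0.11. FUT1, a fucosyltransferase, lay at -1.24 and -0.34, a difference of -0.90. GPRIN2, a G protein regulator, lay at -0.59 and -0.08, a difference of -0.51 that was -2.13 by the scanner log ratio. TNKS2, a poly-ADP-ribosylating tankyrase, lay at -0.17 and 0.08, and RAB14, a GTPase of endosomal traffic, at 0.06 and 0.23, so both were near mock with either strand. VDAC1 was the gene of the 6 past 1. The other channels of its family, VDAC2 and VDAC3, had differences of 0.35 and 0.07, and the other fucosyltransferases had a range from -0.54 for FUT6 to 0.65 for FUT4.

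Metallothioneins, which bind zinc and copper, were as a list below mock with both strands and lower with miR-490-3p. With miR-490-5p 7 of the 8 measured lay below mock, and MT1F lay above it at 0.24. All 8 measured genes had a difference below 0, with a median of -0.40 and median ratios of -1.23 and -0.90. MT2A, the most widely expressed, lay at -1.13 and -0.97, a difference of -0.16. Apart from MT1F the differences lay between -0.61 and -0.16, and because the genes are near-identical they are not separate measurements.

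Small nuclear RNAs also lay on both sides. Small Cajal body RNAs, which guide modification of spliceosomal RNAs, were above mock with both strands and higher with miR-490-5p, at median ratios of 0.26 and 0.49 over 20 genes and a median difference of -0.35. SCARNA11 lay at 0.68 and 1.83, a difference of -1.15, and SCARNA8 and SCARNA20 had differences of -0.995 and -0.98. Small nucleolar RNAs, which guide modification of ribosomal RNA, had a median of 0.10 over 207 genes, with 156 above 0. SNORA50C lay at 0.90 and -0.69, a difference of 1.59, SNORD52 at 0.75 and -0.63, SNORA65 at 0.63 and -0.51 and SNORD43 at 0.31 and -0.71. SNORA79 lay at -0.35 and 0.95, a difference of -1.30, and SNORA31 at -0.09 and 1.02. Most of these RNAs lie within host genes, so which transcript a probe read is uncertain. The list of Argonaute and silencing machinery had a median difference of -0.20 over 18 genes, with 12 below 0. The deadenylase subunits PAN2 and PAN3 lay lowest of these, with differences of -0.54 and -0.46, and the exporter XPO5 highest, at 0.96.

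**Figure D4:**
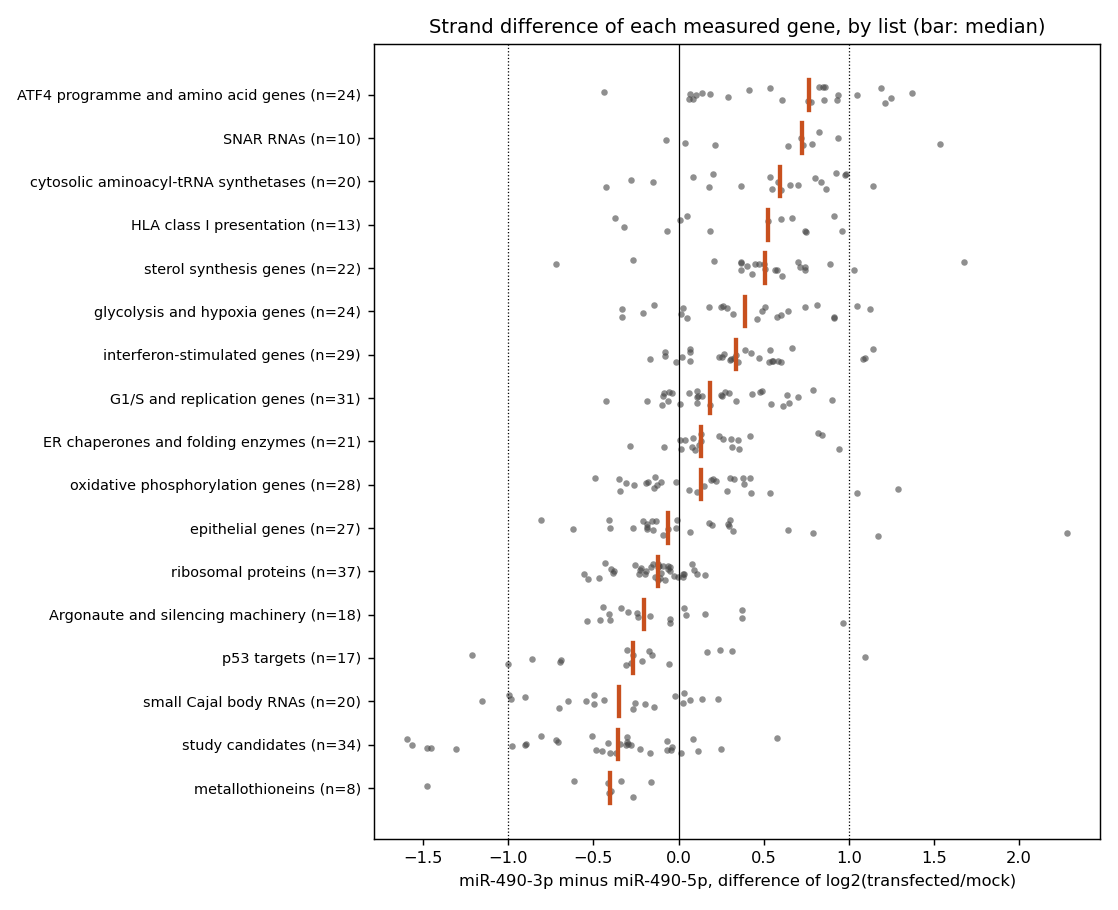
Each point is a measured gene, its x value the difference in log2(transfected/mock) of miR-490-3p minus miR-490-5p, in rows by list with the number of genes; bars mark list medians, and dotted lines mark -1 and 1. Medians run from 0.77 for the ATF4 programme to -0.40 for the metallothioneins, and points of nearly every list lie on both sides of 0.

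Seed matches were looked for in the 60-base probe sequences themselves, since whole untranslated regions were not used here. A match was ATCCATG or TCCATGA for miR-490-5p and CCAGGTT or CAGGTTA for miR-490-3p, in the strand of the transcript, with the 8-base words ATCCATGA and CCAGGTTA counted as both. Probes with a miR-490-5p match lay toward lower levels with that strand. Over 245 probes the median ratio was -0.06 with miR-490-5p against -0.01 with miR-490-3p, and the median difference was 0.06. The difference was at or above 0.5 in 32 of them (13.1%), against 6.27% of all probes, and at or below -0.5 in 5 (2.04%), against 4.31%. The 39 probes with the 8-base word had a median difference of 0.12, and 8 of them (20.5%) were at or above 0.5.

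Probes with a miR-490-3p match lay the other way. Over 153 probes the median ratio was -0.10 with miR-490-3p against -0.01 with miR-490-5p, and the median difference was -0.08. The difference was at or below -0.5 in 14 (9.15%) and at or above 0.5 in 4 (2.61%). The 14 probes with the 8-base word did not lie lower, with a median of -0.05. Without the filter on dim probes the medians for the miR-490-5p and miR-490-3p matches were 0.020 and -0.020, and from the Cy5 channels alone the former was 0.038. These shifts are small beside the SD of 0.328 over all genes, and few of the genes past 1 had a match in their probe. A miR-490-5p match was in the probe of 5 of the 174 genes higher with miR-490-3p and of 0 of the 90 lower, and a miR-490-3p match in 0 of 174 and 3 of 90. Over all 20326 genes the probe held a miR-490-5p match in 184 and a miR-490-3p match in 120, smaller shares than the 5 of 174 and the 3 of 90. A probe covers a small stretch of a transcript, so a gene with no match here may hold one elsewhere.

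**Figure D5:**
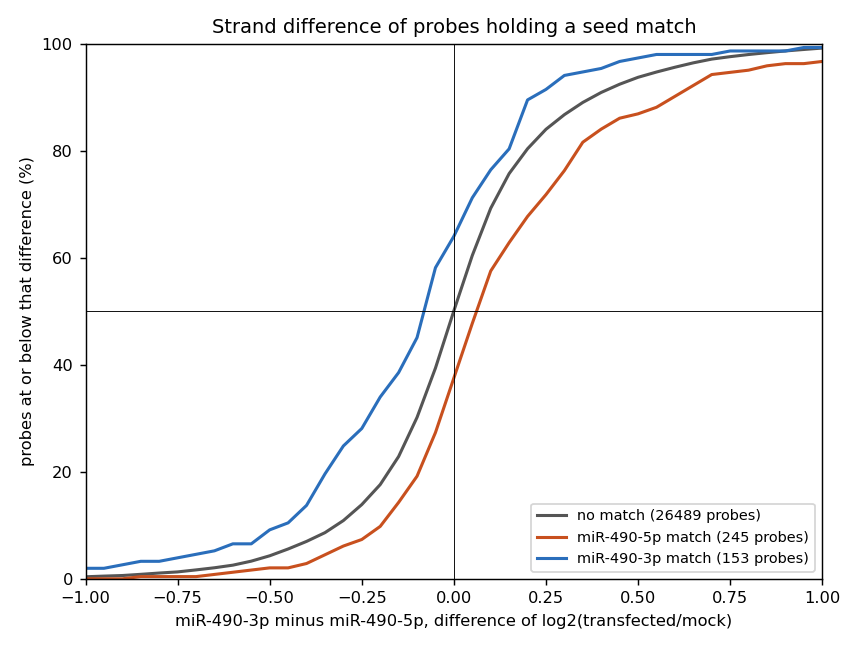
The y axis gives the percentage of probes whose difference in log2(transfected/mock), miR-490-3p minus miR-490-5p, is at or below the value on the x axis, for 245 probes with a miR-490-5p match, 153 with a miR-490-3p match and 26489 with neither. The curve of the miR-490-5p match lies to the right, with a median of 0.06, and that of the miR-490-3p match to the left, with a median of -0.08.

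The genes with a match that were lowest with its strand are given as examples. They were chosen by that low ratio, which enters the difference, so their differences are a description only. AKR7A2, an aldo-keto reductase, was low with both strands, at -1.18 and -2.29, a difference of 1.10. GSTO2, a glutathione transferase whose probe holds the 8-base word, lay at -0.20 and -1.61, a difference of 1.41. PSEN2, presenilin 2 of gamma-secretase, lay at -0.06 and -1.13, a difference of 1.07. MBTPS1, the site-1 protease that activates SREBF2 and ATF6, lay at -0.22 and -1.17, a difference of 0.95, and RBBP4, a histone-binding protein, at -0.85 and -1.35, a difference of 0.50. For miR-490-3p the genes were TLCD5, a membrane protein, at -1.82 with that strand and -0.71 with miR-490-5p (difference -1.11, second probe -0.37), and C6orf89, at -1.31 and -0.29 (difference -1.03, median of further probes -0.63). TMEM147, a partner of the ER translocon, lay at -0.95 and -0.32. FDXR, the mitochondrial adrenodoxin reductase, at -0.98 and -0.68, and HYOU1 were nearly as low with the other strand. The matching stretches of the genes past 1, and of TMEM147, are printed with the match in capitals, on hg19 at chr1:19630593-19630622 (minus strand) for AKR7A2, chr10:106057369-106057398 (plus) for GSTO2, chr1:227083668-227083697 (plus) for PSEN2, chr11:120201260-120201289 (plus) for TLCD5, chr6:36891247-36891276 (plus) for C6orf89 and chr19:36038381-36038410 (plus) for TMEM147. Whether these stretches lie in coding or untranslated exons was not looked up here.
AKR7A2: tctgaattgtctagATCCATGcattatttt
GSTO2: ggaacctgtatATCCATGAttgattacctc
PSEN2: cccaatgctttgTCCATGAtgtccttgtta
TLCD5: cagccatgggaaCCAGGTTggaaatatgac
C6orf89: cagagccgaaaaCCAGGTTgaaaggggaaa
TMEM147: ccctgcctcactCCAGGTTttagtgaagta
The match in PSEN2 is TCCATGA, which pairs with seed bases before the last and ends in an A, and the others hold the full complement of the seed printed for their strand. No binding was measured.

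The miR-139 duplex, processed in the same way in A498 and 786-O renal cancer cells, gave fewer genes past 1. There 15 genes were at or above 1 and 34 at or below -1 of 19169 in A498 (0.0783% and 0.177%), and 0 and 0 of 18340 in 786-O. The SD of the strand difference was 0.207 in A498 and 0.0944 in 786-O. Cell line and duplex differ together here and cannot be told apart. Of the 174 genes higher with miR-490-3p in HCT116, 165 were measured in A498 and 1 was past 1 the same way, and of the 90 lower 81 were measured and 0 were. In 786-O the counts were 0 of 157 and 0 of 77. The ATF4 programme had a median strand difference of -0.28 in A498 and -0.03 in 786-O, against 0.77 in HCT116, and the interferon list -0.30 and -0.12, against 0.34. SLC7A5 lay at -1.21 in A498, opposite to its 1.21 in HCT116.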

How the data were processed

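Total RNA of HCT116 cells was labelled and hybridised to 2-colour Agilent arrays (62976 spots, 2075 of them controls), 1 array per strand. The authors processed the scans with Agilent Feature Extraction, as the file headers state. The deposited intensity columns hold the mean brightness of each spot and its median local background, not normalized. The deposited log10 ratio (Cy5 over Cy3, after the scanner software's own corrections), identical to that in the series table, was converted to log2 as an alternative, here the scanner log ratio.

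Between 139 and 189 spots per array carried outlier flags and were left out, and 0 were saturated. Of all probes 27932 (miR-490-5p) and 28360 (miR-490-3p) were well above background. Median spot brightness was 21.53 to 25.02 against a background of 14 to 17, and with 1 array per strand precision is limited. Background was corrected by normexp with an offset of 50, ratios were normalized within arrays by loess (control spots at weight 0), and repeated spots were averaged by probe (limma 3.58.1, R 4.3.3; then Python 3.11.15, pandas 2.3.3, numpy 2.4.6, matplotlib 3.10.9). The offset draws dim probes toward 0. Cy3 and Cy5 channels were also compared alone after quantile normalization. The steps were also run on simulated data with planted changes larger than 1 and no variation between cultures. That run is no measure of how differences near 1 hold. RefSeq accessions named 31104 of 33080 probes that carried one; other names and hg19 positions are those of the array annotation.

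Named genes were the 15 highest and 15 lowest differences among genes at or past 1 that held 0.5 by the scanner log ratio and by the Cy5 channels alone, list members at or past 1, 6 targets named by the study or by other work, and the 5 lowest genes with each seed match. The choice by seed match left out some genes by chromosome. Genes named beyond these groups were chosen after their values were seen. The members and the 37 gene lists were chosen with earlier results of these data known. A few genes are not reported here.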

Additional observations from a re-analysis of the deposited data

How the results depend on the processing

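Settings changed sizes more than directions. The 174 genes at or above 1 became 940 by the scanner log ratio, 394 with an offset of 10, 344 without background correction and 348 with median centring, and the 90 genes at or below -1 became 1026, 261 and 220 under the first 3 of these and 149 from the Cy5 channels alone. The interferon median (0.34) was 0.58, 0.51, 0.47 and 0.43 under the same 4 settings, and the candidate median (-0.36) was -0.64, -0.48 and -0.48 under the first 3 and -0.49 from Cy5 alone. Median centring gave 0.28 for the ER chaperones (0.13) and 0.91 for the ATF4 programme (0.77). The scanner log ratio gave 0.16 for probes with a miR-490-5p match and -0.23 for those with a miR-490-3p match, and the offset of 10 gave -0.19 for the latter, whereas without a filter on dim probes they were 0.020 and -0.020 (from 0.063 and -0.084), and Cy5 alone gave 0.038 for the former. The cause of each change was not tested. None of the genes named by rule and none of these medians changed sign under the 8 alternatives run. For the 15 highest and 15 lowest genes this was fixed in advance for the scanner log ratio and Cy5 alone, which entered their choice. The settings that changed the filter could move none of the genes named by rule, since each probe was chosen before the filter. That part of the check was fixed in advance too. Genes named beyond the rule were not part of this check. Among other lists the ribosomal proteins (-0.12) reversed to 0.030 by the scanner log ratio, 0.048 with median centring and 0.026 from Cy5 alone, the HMG proteins (-0.11) to 0.034 with median centring, and the RNA sensors (0.12) to -0.050 from Cy5 alone. Lists with medians within 0.07 of 0 (ER sensors, oligosaccharyltransferase, epithelial and mesenchymal genes, fucosyltransferases, histones) also crossed 0 in places. The median over probes moved 19 named genes by more than the SD of the difference between mock channels, among them HMGA2 (1.94 to 0.07) and SP100 (-1.77 to -0.01), and 3 other lists, and no filter moved 5 other lists. No paired analysis was possible because each strand had 1 array.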
